A study of Mus musculus with 7 samples.

Results

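The immediate early and AP-1 transcription factor genes were followed in mouse precision-cut liver slices (PCLS) cultured with or without valproic acid (VPA). The group was set by name and holds 10 genes (Fos, Fosb, Fosl1, Fosl2, Jun, Junb, Jund, Egr1, Atf3 and Myc) of the 55487 genes in the count table. PCLS are thin discs of living liver that keep hepatocytes and non-parenchymal cells together, here cut from livers of healthy male Balb/c mice, adult by the age range in the study's methods. All discs were kept in Williams' medium E with glutamine and antibiotics and were collected on day 3. Control slices (CTR, 3 libraries) had no further addition and VPA slices (4 libraries) had 2.5 mM VPA, a branched fatty acid used as an antiepileptic drug, which inhibits histone deacetylases. RNA was read from its 3′ end, so a gene's count does not grow with its length and CPM (the count scaled to the size of its library) can be set side by side between genes.

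Immediate early genes are switched on within minutes by growth factors, cytokines and stress, before any new protein has to be made. FOS proteins pair with JUN proteins to form AP-1, which binds DNA through a basic leucine zipper, and JUN proteins can also pair with each other or with ATF proteins. In the liver this response is known from partial hepatectomy, from cell isolation and from stress signalling, where JUN protects hepatocytes and AP-1 also acts in stellate cells and macrophages.

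The slices hold many cell types, and in such bulk RNA fewer cells of a type cannot be told apart from less RNA per cell. Depth ranged from 1743675 to 4773750 counts in CTR and from 1400887 to 3102450 in VPA libraries. Hepatocyte markers were detected in both groups with overlapping sums (3470 to 7600 CPM in CTR, 2580 to 8210 CPM in VPA), although Cps1 was at 0 in a CTR and in a VPA library. The 9 stellate cell and myofibroblast markers summed to 1560 to 3160 CPM in CTR and 915 to 1200 CPM in VPA, with 8 of the 9 lower. The endothelial sum was 211 to 240 CPM in CTR and 69.2 to 236 CPM in VPA, where Vwf was at 0. The cholangiocyte sums overlapped (268 to 614 and 258 to 741 CPM). The macrophage sum was 232 to 273 against 261 to 406 CPM with Adgre1 and Marco at 0 throughout, and the lymphocyte and neutrophil sum was 11.0 to 18.7 against 7.07 to 35.3 CPM with Cd79a, Nkg7, S100a8, S100a9 and Ly6g at 0 throughout. The part of these markers in the results was not tested. Zeros in genes that other libraries counted well were frequent. Of the genes for which at least 50 counts were expected from the other libraries, 0.79% to 0.999% were at 0 in CTR libraries and 1.815% to 4.186% in VPA libraries, including genes that every cell uses. The other libraries were of both groups, so a gene lacking in VPA slices also counts here.

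At this depth 9 of the 10 genes could be tested, and none passed edgeR's quasi-likelihood test at an adjusted p under 0.05, where 0.00919% of all 10876 tested genes (1 gene) did. At an unadjusted p under 0.05 there were 3, Junb and Egr1 higher and Jund lower with VPA. Of all tested genes 8.28% had such a p, 3.65% higher and 4.62% lower. For 4 of the 9 the libraries of the groups did not overlap (Junb and Egr1 higher, Jund and Myc lower), as for 11.9% of all genes, 4.44% higher and 7.41% lower. A log2 fold change above 0 was found for 5 of 9, and for 45.8% of all genes. The median log2 fold change was 0.45 over the 9 genes and -0.06 over all genes tested. DESeq2 on the same filtered genes called Junb, Egr1 and Jund at an adjusted p under 0.05, where it called 3.21% of its genes (1.35% higher, 1.86% lower). DESeq2 on all genes with a count called none of the 9, and 1.01% of its genes (0.256% higher, 0.754% lower).

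**Figure D1:**
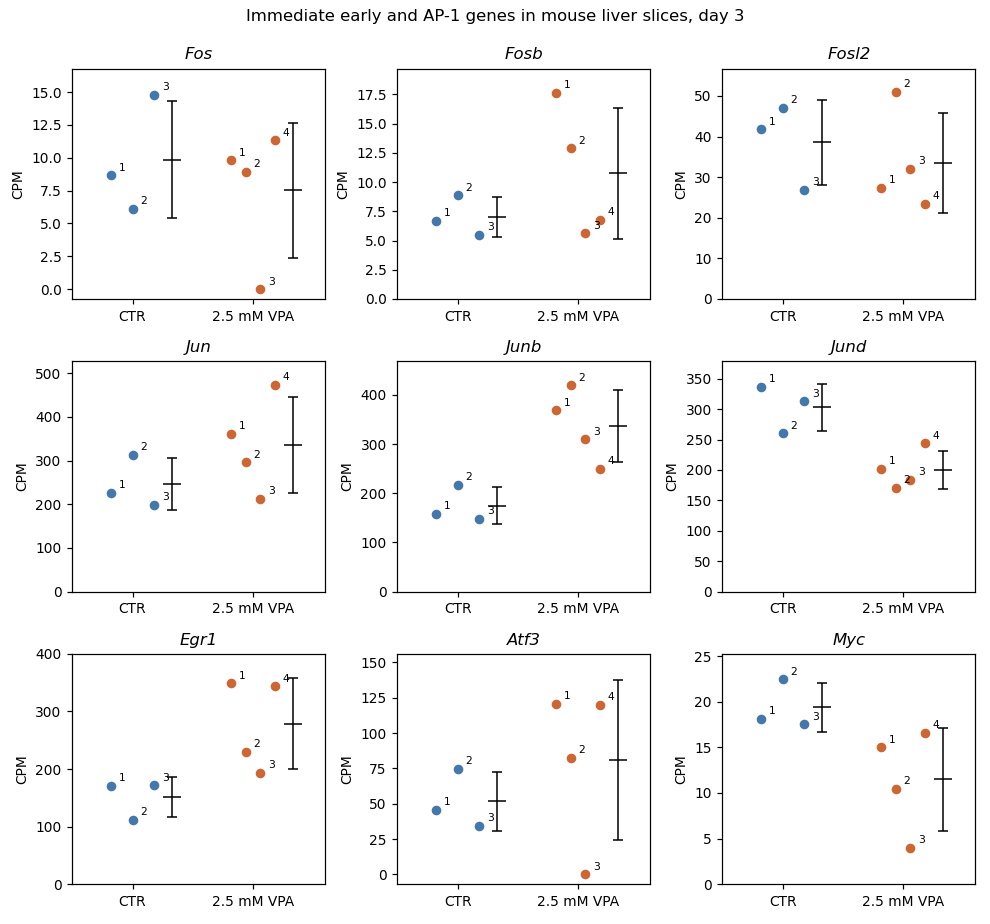
Level of each of the 9 detected genes in every library, in TMM-normalized CPM, with CTR and VPA libraries as separate points and a black bar for the group mean and SD. The groups are apart for Junb and Egr1 (VPA higher) and for Jund and Myc (VPA lower), and Fos and Atf3 have a single VPA library at 0.

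JUN proteins are the partners that every AP-1 dimer of the FOS type needs. Jun (chr4:95049034-95052222, minus strand, GRCm38) encodes the strongest activator of the family. Its level was 226, 314 and 199 CPM in CTR replicates 1 to 3 and 361, 296, 213 and 474 CPM in VPA replicates 1 to 4. VPA replicates 1 and 4 lay above all controls and the other two within their range. The log2 fold change was 0.45 (SE 0.29, edgeR adjusted p = 0.793). The means were 246 ± 59.9 CPM (SD, n = 3) and 336 ± 110 CPM (SD, n = 4), and the groups overlapped. Leaving out 1 library gave 0.23 (without VPA replicate 4) to 0.65 (without CTR replicate 2), with 0.29 without CTR replicate 3 and 0.61 without VPA replicate 3 (edgeR adjusted p = 0.547).

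Junb (chr8:84974484-84978718, minus strand) encodes a JUN protein that activates less strongly than JUN and can oppose it. It was read at 158, 218 and 148 CPM in CTR and at 369, 420, 310 and 250 CPM in VPA replicates 1 to 4. All 4 VPA libraries lay above all 3 controls. The means were 175 ± 37.5 and 337 ± 73.4 CPM, a fold of 1.93 and a log2 fold change of 0.95 (SE 0.23, edgeR adjusted p = 0.310). Leaving out any library kept the log2 fold change between 0.82 and 1.13. The call depended on the tool, since DESeq2 on the filtered genes gave an adjusted p of 0.00251 and DESeq2 on all genes with a count gave 0.0535. The last 351 bases of Junb overlap the end of Prdx2 on the other strand, and the use of strand in the counting is not stated. Prdx2, a peroxide-removing enzyme named only for this overlap, was at 179, 136 and 155 CPM in CTR and 113, 193, 288 and 116 CPM in VPA (log2 fold change 0.18, edgeR adjusted p = 0.957), with groups that overlapped. Genes on the other strand also overlap Fosl1 (Ccdc85b), Jun (Junos), Jund (Gm11175) and Atf3 (Gm24748).

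Junb carries the smallest p of the group, and the 250 bases before its RefSeq start (GRCm38.p6, chr8:84978749-84978998, minus strand) are therefore shown. Capitals mark TGACG, the core that CREB and ATF proteins read, searched on both strands like every motif here. It is also the first part of TGACGTCA.
Junb: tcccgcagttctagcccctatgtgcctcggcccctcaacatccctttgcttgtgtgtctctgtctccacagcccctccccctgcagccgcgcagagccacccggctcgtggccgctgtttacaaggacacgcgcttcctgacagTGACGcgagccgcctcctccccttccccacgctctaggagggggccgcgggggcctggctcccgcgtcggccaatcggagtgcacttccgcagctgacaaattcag
The motif was found once and was chosen after the fixed motifs had been counted, and 20.8% of 32851 mouse promoter windows hold it. All windows searched, those of the members included, have 300 bases, the 250 before the start and the 50 after it. Of the 7 member genes with a window (Atf3, Jun, Fosl2, Fosb, Jund, Junb and Fos), 4 held it. None of the 7 held the AP-1 site TGANTCA, the full cyclic AMP response element TGACGTCA, a CArG box, the EGR site GCGTGGGCG, the MYC site CACGTG or the STAT site TTCNNNGAA, which 7.81%, 1.79%, 1.63%, 0.612%, 7.15% and 8.30% of all windows held. An NF-kB site was in 3 of the 7 (Fosl2, Fosb and Fos) and in 8.46% of all windows. These are matches of letters in a short window and not sites shown to be bound. The RefSeq start used lies upstream of the GENCODE gene for Jund and inside it for Fosl2 and Atf3, so these windows are not next to the starts printed here.

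Jund (chr8:70698949-70700616, plus strand) encodes the JUN protein that resting cells make constantly. Its level was 336, 261 and 313 CPM in CTR and 202, 170, 184 and 244 CPM in VPA. The highest VPA library was below the lowest control. The means were 303 ± 38.9 and 200.0 ± 32.0 CPM, 1.52-fold lower with VPA (log2 fold change -0.60, SE 0.17, edgeR adjusted p = 0.393). The log2 fold change stayed between -0.72 and -0.52 when any library was left out. DESeq2 gave adjusted p values of 0.0229 on the filtered genes and 0.165 on all genes with a count. The summed stellate cell and myofibroblast markers were likewise below every control in each VPA library, and their part in the level of Jund was not tested.

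By mean CPM Jund was the highest of the 3 JUN genes in CTR and the lowest in VPA. As a share of the summed CPM of Jun, Junb and Jund, Junb was 22.0%, 27.5% and 22.4% in CTR and 39.6%, 47.4%, 43.9% and 25.8% in VPA, groups that overlapped in VPA replicate 4. The share of Jund was 46.7%, 32.9% and 47.4% in CTR and 21.7%, 19.2%, 26.0% and 25.2% in VPA, with no overlap. The share of Jun overlapped (30.1% to 39.6% against 30.1% to 49.0%). The ratio of Junb to Jund was 0.471, 0.835 and 0.473 in CTR and 1.83, 2.46, 1.69 and 1.02 in VPA, below 1 in every control and above 1 in every VPA library. The sum of the 3 genes overlapped, at 721, 792 and 660 CPM in CTR and 932, 886, 706 and 968 CPM in VPA. Shares of a sum are tied to each other, and the ratio restates the values of Junb and Jund given above.

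**Figure D2:**
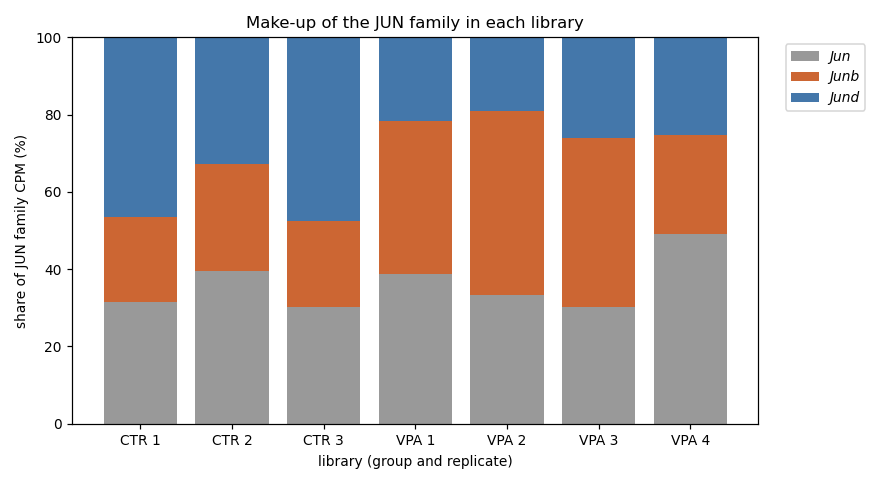
Share of Jun, Junb and Jund in their summed CPM, in percent, as a stacked bar for each library. Jund takes 32.9% to 47.4% in the CTR libraries and 19.2% to 26.0% in the VPA libraries, and Junb is largest in VPA replicate 2 at 47.4%.

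The FOS genes were read at lower levels than the JUN genes, with summed CPM of 57.1, 62.1 and 47.2 in CTR and 54.8, 72.9, 37.7 and 41.5 in VPA. Fosl2 (chr5:32135801-32157842, plus strand), which encodes FRA2, a FOS protein that lasts longer after induction than FOS, made up most of this in 6 of the 7 libraries. It was at 41.8, 47.1 and 26.9 CPM in CTR and 27.4, 51.0, 32.1 and 23.4 CPM in VPA. The groups overlapped, with a log2 fold change of -0.20 (SE 0.35, edgeR adjusted p = 0.953). Fosb (chr7:19302696-19310051, minus strand), best known from neurons, was at 6.70, 8.87 and 5.48 CPM in CTR and 17.6, 12.9, 5.62 and 6.80 CPM in VPA. VPA replicates 1 and 2 lay above the controls and replicates 3 and 4 within them, with a log2 fold change of 0.61 (SE 0.63, edgeR adjusted p = 0.910). The log2 fold change of Fosb was 0.28 without VPA replicate 1 and at most 0.81 without any other library, and that of Fosl2 lay between -0.48 and -0.04 (without VPA replicate 2 and CTR replicate 2). Fosb rests on 7 to 45 counts a library.

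Fos (chr12:85473890-85477273, plus strand), the textbook immediate early gene, rested on 22, 31 and 27 counts in CTR and 15, 29, 0 and 15 in VPA. In CPM it was 8.67, 6.11 and 14.8 in CTR and 9.79, 8.92, 0 and 11.3 in VPA. Apart from VPA replicate 3 all VPA libraries lay within the range of the controls. The log2 fold change was -0.37 (SE 1.06, edgeR adjusted p = 0.968), and 0.02 without VPA replicate 3. At the mean CPM of the other VPA libraries that library would have held 12.5 counts. Fosl1 (chr19:5447547-5455946, plus strand), which encodes FRA1, had 0 counts in every library, which by counting error alone allows up to 0.591 to 2.41 CPM. Since well-counted genes are also listed at 0 in single libraries, a 0 in this table may not be a count limited by depth, and no change in Fosl1 could be measured.

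The window before Fos (chr12:85473640-85473889, plus strand, RefSeq on GRCm38.p6) is shown because it holds TGACG at 2 places in a gene whose groups overlapped. Capitals again mark TGACG.
Fos: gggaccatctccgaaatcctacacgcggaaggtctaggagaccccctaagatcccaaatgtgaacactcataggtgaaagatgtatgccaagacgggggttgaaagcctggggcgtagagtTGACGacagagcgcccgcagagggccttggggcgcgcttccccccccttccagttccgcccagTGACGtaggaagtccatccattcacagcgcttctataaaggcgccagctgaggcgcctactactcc
These copies begin 129 and 66 bases before the start. The downstream copy lies in the element through which CREB is known to act on Fos.

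Atf3 (chr1:191170296-191218039, minus strand), a stress-induced bZIP protein that pairs with JUN proteins and often represses, was read at 45.7, 74.7 and 34.5 CPM in CTR and 121, 82.7, 0 and 120 CPM in VPA. Of the VPA libraries 3 lay above all controls and replicate 3 had no count, where 134 counts would have been found at the mean CPM of the others. The log2 fold change was 0.64 (SE 1.04, edgeR adjusted p = 0.948). Without VPA replicate 3 it was 1.04 (edgeR adjusted p = 0.408), with means of 51.7 ± 20.7 (SD, n = 3) and 108 ± 21.8 CPM (SD, n = 3). It was 0.39 without VPA replicate 1 or 4 and 0.40 without CTR replicate 3, and 1.00 without CTR replicate 2. The direction turned with limma-voom (-0.42) and when slice culture (-0.32) or replicate number (-0.37) was a term of the fit. In VPA replicate 3, 94 of 4365 genes with at least 50 expected counts were at 0, which is 2.153%, Atf3 among them. The window before Atf3 (chr1:191183334-191183583, minus strand, RefSeq on GRCm38.p6) lies inside the GENCODE gene, because the RefSeq start used is downstream of the GENCODE start. It is shown beside that of Fos, as a further immediate early gene with a 0 in the same library and a match close to its start. Its match is on the opposite strand, so the capitals read CGTCA.
Atf3: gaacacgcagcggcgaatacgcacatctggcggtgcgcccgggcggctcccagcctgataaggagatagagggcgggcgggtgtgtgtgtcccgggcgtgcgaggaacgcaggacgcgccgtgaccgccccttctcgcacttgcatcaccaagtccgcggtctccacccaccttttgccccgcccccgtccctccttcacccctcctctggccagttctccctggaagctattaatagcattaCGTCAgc

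Egr1 (chr18:34859823-34864984, plus strand), a zinc finger factor induced through serum response factor and ternary complex factors, was at 171, 111 and 172 CPM in CTR and 349, 230, 193 and 344 CPM in VPA. All VPA libraries lay above all controls, with replicate 3 the nearest to them. The means were 151 ± 34.6 and 279 ± 79.3 CPM, a fold of 1.85 and a log2 fold change of 0.88 (SE 0.27, edgeR adjusted p = 0.447). The log2 fold change lay between 0.69 and 1.02 when any library was left out. DESeq2 gave adjusted p values of 0.0361 on the filtered genes and 0.197 on all genes with a count.

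Myc (chr15:61985391-61990374, plus strand), a growth-promoting factor that is transcribed shortly after the first immediate early genes, was at 18.1, 22.5 and 17.5 CPM in CTR and 15.0, 10.5, 4.01 and 16.6 CPM in VPA. Each VPA library was below each control, with replicate 3 the lowest on 5 counts. The means were 19.4 ± 2.69 and 11.5 ± 5.65 CPM, and the log2 fold change was -0.75 (SE 0.53, edgeR adjusted p = 0.833). Without VPA replicate 3 it was -0.48 (edgeR adjusted p = 0.802).

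**Figure D3:**
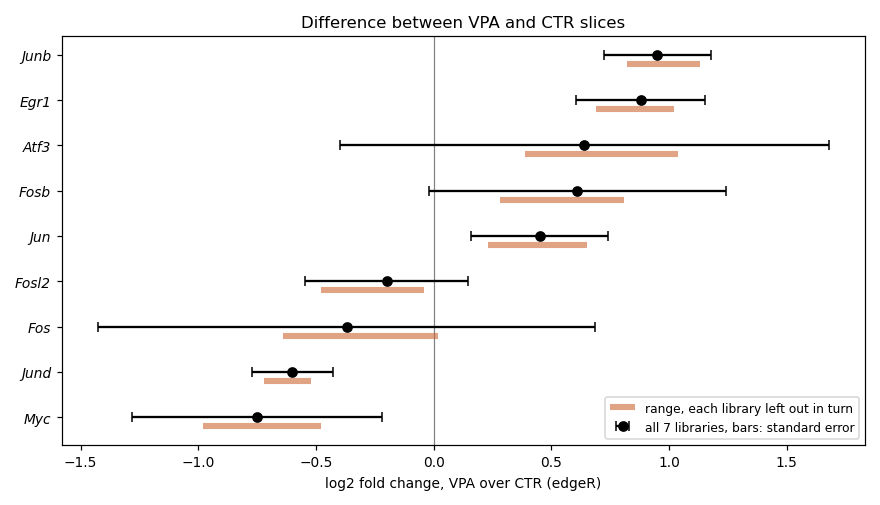
Log2 fold change (VPA over CTR, edgeR) of each of the 9 tested genes, with black bars for the standard error and orange bars for the range when each library was left out. Junb (0.95) and Egr1 (0.88) lie highest, Jund (-0.60) and Myc (-0.75) lowest, and Fos and Atf3 have errors of more than 1 on the log2 scale.

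Ordered by level, the controls had Jund first, then Jun, Junb and Egr1, each overlapping its neighbour, then Atf3 and Fosl2, which overlapped, then Myc, and last Fos and Fosb, which overlapped. In VPA slices Junb, Jun, Egr1 and Jund came first with overlapping neighbours, Atf3 and Fosl2 again overlapped, and Myc, Fosb and Fos could not be separated. Jund was thus first of 9 by its mean in CTR and below Junb, Jun and Egr1 in VPA. Library labels carry a slice culture number, which CTR and VPA libraries share for cultures 71, 72 and 74, and what the number marks is not stated. Within these 3, the VPA minus CTR difference in log2 CPM of Junb was 1.06, 0.66 and 0.94, that of Jund -0.77, -0.46 and -0.61, and that of Egr1 0.17, 1.00 and 1.04. The sign was the same in all 3 for these genes, with Egr1 small in culture 71. Myc (-1.92, -0.12 and -1.05) and Fosb (0.03, 0.02 and 0.50) also had 1 sign in all 3, each with values near 0. For Junb, Jund, Egr1 and Myc a common sign was fixed by groups that did not overlap, so it is no further support. Jun differed in sign (0.10, 1.07 and -0.08), as did Fosl2 (0.25, -0.81 and 0.11), Fos (-4.23, 0.36 and 0.49) and Atf3 (-5.41, 1.38 and 0.15).

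Among other immediate early genes 31 of 38 were tested, of which 2 had an unadjusted p under 0.05 with a higher level and 2 with a lower level (3.65% and 4.62% of all genes), and the list median was 0.12 on the log2 scale. The 2 higher genes became 0 with library size scaling alone and without CTR replicate 1, CTR replicate 3 or VPA replicate 2, and 4 with DESeq2, and the 2 lower became 5 without the filter on low counts. Dusp1, the phosphatase that switches MAP kinases off, was at 12.6, 30.8 and 18.6 CPM in CTR and 66.6, 54.1, 29.7 and 34.7 CPM in VPA (log2 fold change 1.16, edgeR adjusted p = 0.543), with an overlap in replicate 3. Ier3, an early gene that modulates cell survival, had a log2 fold change of 0.62 (edgeR adjusted p = 0.575). Trib1, a pseudokinase, had one of -0.92 (edgeR adjusted p = 0.376), and Zfp36l1, which promotes decay of AU-rich messages, one of -0.49 (edgeR adjusted p = 0.447). Trib1 and Zfp36l1 were lower in every VPA library than in every control. This held for 3 of the 31 tested genes of the list and for 7.41% of all genes. The upstream MAP kinase and serum response factor pathway had 20 of 22 genes tested and 1 with such a p, Elk3, a ternary complex factor that often represses (log2 fold change -1.16, edgeR adjusted p = 0.447). The median of this list was 0.14. Braf, a kinase that activates the MAP kinase cascade, had mean levels of 62.2 CPM in CTR and 87.5 CPM in VPA with no overlap (log2 fold change 0.49, SE 0.23, edgeR adjusted p = 0.646). Map2k2, the next kinase down, had a log2 fold change of 0.45 (edgeR adjusted p = 0.654) and groups that overlapped. Elk1, a ternary complex factor that activates, was at 7.88 to 13.0 CPM in CTR and 15.1 to 19.7 CPM in VPA (edgeR adjusted p = 0.694). With DESeq2 on the filtered genes Braf, Map2k2 and Elk1 had unadjusted p values of 0.0345, 0.0351 and 0.027. Their DESeq2 adjusted p values were 0.316, 0.319 and 0.273. Of the other AP-1 and bZIP partners 8 of 11 were tested, none with such a p, and the median log2 fold change was -0.06. With limma-voom 2 were lower, Mafk and Jdp2 (unadjusted p = 0.00608 and 0.0242), both at 0 in some VPA libraries. In edgeR 1 was lower without VPA replicate 4 or with a block for replicate number, and 1 higher without VPA replicate 2.

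Of 22 AP-1 target genes 16 were tested, and the median log2 fold change was -0.32. All 4 with an unadjusted p under 0.05 were lower in the VPA slices, where 4.62% of all tested genes were lower and 3.65% higher with such a p. Vim, an intermediate filament of mesenchymal cells, was at 645, 597 and 722 CPM in CTR and 213, 367, 318 and 341 CPM in VPA (log2 fold change -1.08, edgeR adjusted p = 0.193). Tnc, a matrix glycoprotein, had a log2 fold change of -1.18 (edgeR adjusted p = 0.244), Cd44, the hyaluronan receptor, one of -0.67 (edgeR adjusted p = 0.458), and Mmp13, a collagenase, one of -1.31 (edgeR adjusted p = 0.592). The stellate cell and myofibroblast markers were lower in the same libraries, among them Col1a1 (log2 fold change -1.66, edgeR adjusted p = 0.112, and 0.00745 with at least 10 counts in every library). DESeq2 gave Col1a1 adjusted p values of 8.08e-09 on the filtered genes and 4.39e-07 on all genes with a count. The part of these markers in the values of the AP-1 target genes was not tested.

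The 18 MYC target genes were all tested. Of these 16 had a lower and 2 a higher log2 fold change, 6 had an unadjusted p under 0.05, all of them lower (4.62% of all genes), and the median was -0.51, beside -0.06 over all genes. Without VPA replicate 3 there were 3 in place of 6. Npm1, a nucleolar chaperone of ribosome assembly, was at 1169, 1267 and 1230.0 CPM in CTR and 789, 605, 685 and 898 CPM in VPA (log2 fold change -0.72, edgeR adjusted p = 0.295). Ncl, the nucleolar protein nucleolin, was at 1880.0, 1861 and 1924 CPM in CTR and 1460.0, 1186, 1258 and 1344 CPM in VPA (log2 fold change -0.53, edgeR adjusted p = 0.328). Neither gene overlapped between the groups, as was so for 6 of the 18, all lower, and for 7.41% of all genes in that direction. Among the 6 were Cad, at 0 in VPA replicates 1, 3 and 4, and Srm, at 0 in VPA replicate 1. Summed over the list, the level was 5340 to 5900 CPM in CTR and 3420 to 4170 CPM in VPA. Ncl and Npm1 had the highest levels of the list and weigh most in this sum. Myc and the stellate cell markers were lower in the same VPA libraries, and their part in these values was not tested. Of 10 MYC partners and antagonists 7 were tested, and Mxi1, a MAX-binding repressor that opposes MYC, was at 37.4, 39.0 and 34.5 CPM in CTR and 72.5, 68.6, 53.8 and 52.1 CPM in VPA (log2 fold change 0.74, edgeR adjusted p = 0.389). Mnt, another repressor that opposes MYC, had a log2 fold change of -0.45 (edgeR adjusted p = 0.650) and was lower in every VPA library than in every control. Mlx, a partner of the MAX network, had one of 0.57 (edgeR adjusted p = 0.662) and was higher in every VPA library.

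Of 13 ATF4 and integrated stress genes, which include inducers and partners of ATF3, 11 were tested. At an unadjusted p under 0.05 there was 1 higher and there were 2 lower (3.65% and 4.62% of all genes), and the median log2 fold change was -0.41. Leaving out 1 library gave 0 (without CTR replicate 3) to 2 (without VPA replicate 1) higher, and 1 lower without CTR replicate 1, CTR replicate 3 or VPA replicate 1. Ppp1r15a, which encodes GADD34 and restores translation after stress, was at 44.4 to 60.9 CPM in CTR and at 192, 150.3, 49.8 and 118 CPM in VPA replicates 1 to 4 (log2 fold change 1.30, edgeR adjusted p = 0.476), with replicate 3 within the controls. Atf5, a bZIP factor of the same response, was lower in each VPA library (log2 fold change -0.91, edgeR adjusted p = 0.339), and Slc7a11, a cystine transporter, had a log2 fold change of -1.09 (edgeR adjusted p = 0.575). No gene of the 7 lists had an edgeR adjusted p under 0.05 in the filtered genes, and for some the call depended on the tool. DESeq2 called Vim (adjusted p = 3.69e-05 on the filtered genes and 0.00162 on all genes with a count), Tnc (0.000211 and 0.0375), Npm1 (0.00122 and 0.00907) and Ncl (0.000368 and 0.00527) in both fits. On the filtered genes alone it also called Trib1, Zfp36l1, Elk3, Cd44, Mxi1, Atf5 and Ppp1r15a. With at least 10 counts in every library edgeR called Vim (adjusted p = 0.0328).

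**Figure D4:**
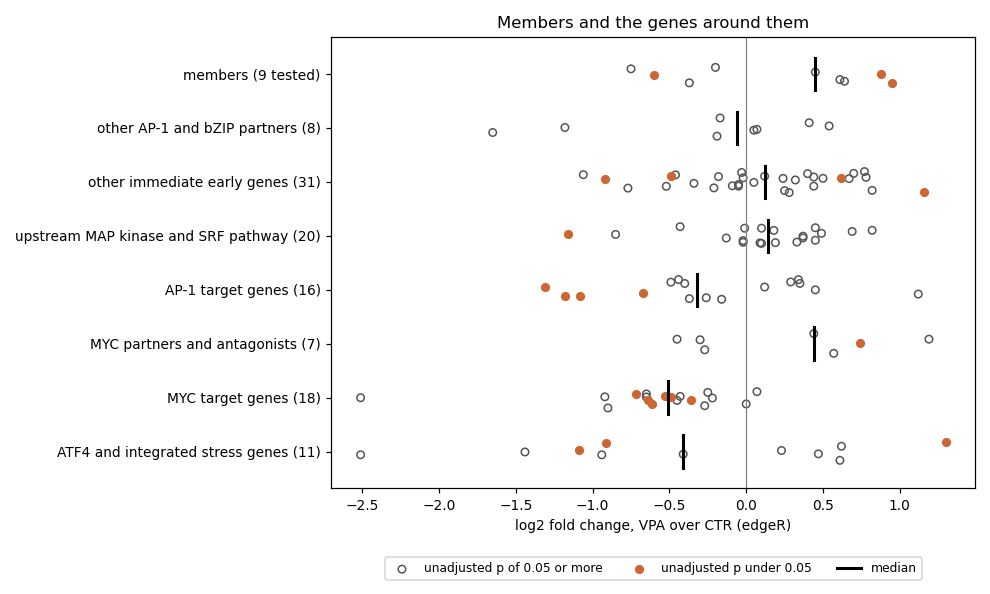
Log2 fold change (VPA over CTR, edgeR) of each tested gene in the 9 tested members and in 7 lists of related genes, with filled points for an unadjusted p under 0.05 and a bar for the median. The median lies at -0.51 for the MYC target genes and at 0.45 for the members.

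The genes whose profile over the 7 libraries was most like the mean profile of the 9 tested members were Mob1b (Pearson r = 0.982), Rnf2 (0.981), Pds5a (0.975), Ptprs (0.975) and Ppp2ca (0.969), among 6386 genes with a mean of at least 20 CPM. The mean profile was lowest in VPA replicate 3, where Fos and Atf3 had 0 counts. These coefficients are a description over 7 libraries that differ in depth and in condition, both of which enter every profile.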

How the data were processed

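RNA of 3 CTR and 4 VPA cultures was made into 3′ end libraries (QuantSeq, forward) and sequenced by the authors, who mapped it to GRCm38 with STAR, used StringTie, and deposited raw counts per Ensembl gene without normalization. How reads were counted, with or without strand, and what became of multi-mapping reads is not given in the sources used here. Groups came from the sample labels. Symbols and coordinates came from GENCODE on GRCm38 and named 55227 of 55487 genes. With R 4.3.3 and edgeR 4.0.16 the counts of 10876 genes (filterByExpr) were TMM-normalized and tested with the robust quasi-likelihood fit, condition as the only term, with Benjamini-Hochberg adjustment over all tested genes. CPM are TMM-normalized, and log2 CPM have a prior count of 2. A total of 1400887 to 4773750 counts a library limits precision, and a count of 0 allows 3 counts, which covers counting error only. The fit was first tested on simulated data. The study's methods take each biological repeat from a different liver, and the slice culture numbers in the labels differ within each group. Replicates were compared pair by pair, and their chi-square per degree of freedom was 14.7 to 27.3, above counting noise.

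The 10 genes, the 7 pathway lists and the 6 marker lists were chosen with earlier results of these data known. The text names all members and, from each list, at most 4 genes with the smallest p. Ddit3 had 2 identifiers, of which the lower was used. Promoter windows are RefSeq's, held here for 7 of the 10 genes (not Egr1, Fosl1 or Myc). Alternatives were other filters, RLE, upper quartile and library size normalization, no robust dispersion, DESeq2 1.42.0, voom in limma 3.58.1, another prior count, a block for slice culture or replicate number, and each library left out. DESeq2 on all genes with a count was added after seeing the data.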

Additional observations from a re-analysis of the deposited data

Results flagged for a closer look

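Of 18 sets of 4 VPA values examined for a sample far from the others, 2 held one, and chance gives about 0.05 of such sets. The depth of VPA replicate 2 was 3102450 counts, and its gap to the nearest library was 0.932 of the group's range, above Dixon's critical value. The share of Fosb in the summed CPM of Fos, Fosb and Fosl2 was 32.1% in VPA replicate 1, with a gap of 0.837 of the range. This share rests on 27 counts of Fosb in that library.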

How the results depend on the processing

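Over all genes 1 passed the adjusted threshold (1 higher, 0 lower). It was 10 without the filter on low counts (2 higher, 8 lower), 36 with at least 10 counts in every library (17 higher, 19 lower), 348 with DESeq2 on the filtered genes (146 higher, 202 lower), 154 with DESeq2 on all genes with a count (39 higher, 115 lower), and 0 (0 higher, 0 lower) with a block for slice culture or for replicate number. At an unadjusted p under 0.05 there were 900 (397 higher, 503 lower). Leaving out each library gave 0 to 2 genes, of which 0 to 1 were higher and 0 to 2 lower, and the 2 were found without VPA replicate 2 or 4. Of 158 member values under an alternative, 153 kept their direction and 3 passed the threshold, all in DESeq2 on the filtered genes: Junb 0.96, Jund -0.59 and Egr1 0.90. The 5 that reversed were Fos at 0.01 without CTR replicate 3 and 0.02 without VPA replicate 3 (leave-one-out range -0.64 to 0.02), and Atf3 at -0.42 in voom, -0.32 with the slice culture block and -0.37 with the replicate number block, and the cause was not tested. Junb, Jund and Egr1 had an unadjusted p under 0.05 in all 18 alternatives, at most 0.0183, 0.0373 and 0.0496 (edgeR with 1 library left out). The alternatives reuse the same libraries and are not independent. In the main fit 8.28% of all genes had such a p, and the share that kept it in every alternative was not counted. Of 630 list results under an alternative 55 moved, among them 7 of 126 medians. Deviations of libraries with a common number correlated at 0.107, 0.0256 and 0.0546 for cultures 71, 72 and 74. For replicates 1, 2 and 3 they correlated at -0.0539, 0.0546 and 0.107. Libraries with different numbers were not correlated for comparison, so these values cannot decide whether libraries are paired. Whether a number marks 1 liver is not stated. In the slice culture block Junb was at 0.89, Jund at -0.61 and Egr1 at 0.75. Fos, Fosb, Atf3 and Myc could not be fitted where every library needed 10 counts. The biological coefficient of variation was 0.609, and 0.283 with at least 10 counts in every library. It measures spread between replicates beyond counting noise, and limits what this number of libraries can show.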

Other observations

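Outside the comparisons above, the related lists held genes at 0 in several VPA libraries and in no control, of which examples follow. Mafk, a small bZIP partner without an activation domain, was at 47.3, 54.4 and 42.8 CPM in CTR and at 0, 0, 0 and 62.7 CPM in VPA replicates 1 to 4. Jdp2, a bZIP repressor that pairs with JUN proteins, was at 12.6, 14.2 and 15.4 CPM in CTR and at 5.22, 0, 20.1 and 0 CPM in VPA. Cdh5, the cadherin of endothelial junctions, was at 80.0, 65.2 and 76.2 CPM in CTR and at 0, 0, 29.7 and 26.4 CPM in VPA. For Mafk and Jdp2 a VPA library exceeded every control although others were at 0.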
